A study of Rattus norvegicus with 4 samples.

Results

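The genes of glutamate transmission were followed through 4 hypothalamus samples of adult rat offspring. They comprised receptor subunits, vesicular and uptake transporters, the enzyme that turns glutamate into glutamine, and postsynaptic scaffolds. The members were given as 37 gene symbols and were matched to the symbols of the deposited probe table, ignoring case and suffixes. Of these, 31 were matched by 35 probes, among 21397 named genes on 22523 probes in all. The other 6 members (Gria1, Grin3a, Grm3, Grm6, Glul and Homer1) had no probe matched and were not analysed here.

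The samples were total RNA from isolated hypothalami of male Wistar rats aged 4 months, measured on Illumina rat bead arrays. FR30 offspring had been undernourished before birth and had eaten either a high-fat (HF) or a standard diet. Control offspring had eaten the same 2 diets. Each of the 4 groups was 1 sample, so no difference between groups had a replicate check, and the number of animals behind a sample was not given in the sources used here.

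Glutamate is the main excitatory transmitter of the brain, including the hypothalamus. It is loaded into vesicles by the Slc17a6 to Slc17a8 transporters, acts on ion channel receptors of the AMPA, kainate and NMDA types and on slower metabotropic receptors, and is cleared by Slc1a transporters of astrocytes and neurons. In the hypothalamus, glutamate input drives the neurons that control feeding, stress hormones and water balance.

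Signals below are the authors' normalized intensities on a linear scale, and each ± is the SD deposited beside the signal, for which the number and kind of values are not stated. Differences are log2 values, taken after the background had been corrected and the samples quantile normalized, and 1.5-fold corresponds to 0.585. A probe counted as detected at a detection p under 0.01. Signals of different probes cannot be set against each other, so no gene's level is compared with another gene's.

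Between 10579 and 11122 probes were detected per sample. Of 12 marker genes of the hypothalamus, 11 were detected in all samples, and the exception was Sim1, detected in none. Markers of the neighbouring thalamus differed between the samples: the summed signal of its 11 markers detected throughout was 7743 in FR30 HF, 8743 in FR30 standard, 6697 in control HF and 9040 in control standard. The summed signal of 10 neuronal markers lay between 84905 and 88207, and that of 8 astrocyte markers between 106579 and 110579. Such sums are set mostly by the brightest probes. Single neuronal markers differed more, by between -0.40 and 0.21 for FR30 against control offspring on HF diet. In tissue samples, fewer cells of a type and less RNA per cell cannot be told apart.

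Of the 31 members with a probe, 21 were detected in all samples, 3 in some and 7 in none. Detection was complete for the AMPA subunits Gria2, Gria3 and Gria4, for the kainate subunits Grik1, Grik2 and Grik5, and for the NMDA subunits Grin1, Grin2a, Grin2b and Grin2c. The same held for the metabotropic receptors Grm2, Grm4, Grm7 and Grm8, the vesicular transporter Slc17a6, the uptake carriers Slc1a1, Slc1a2 and Slc1a3, the scaffolds Dlg4 and Shank1, and Grina, a membrane protein named for its link to NMDA receptors. Grm5 was detected in 3 samples, Grin2d in 2 and Slc1a6 in 1. Grid1, Grik3, Grik4, Grin3b, Slc17a7, Slc17a8 and all 4 probes of Shank2 were not detected in any sample. Slc17a7 loads vesicles mainly in cortical and hippocampal neurons, and its detection p lay between 0.902 and 0.960.

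Receptor and scaffold genes were often lowest after both exposures. FR30 HF was the lowest of the 4 samples for 10 of the 21 members detected throughout, against 23.8% of all 10100 such genes. All 10 were receptors, their subunits or scaffolds, as were all of the 21 but 4 transporters and Grina. FR30 HF was the highest for 0 of the 21, against 27.6% of all genes. FR30 standard was the highest for 8 and the lowest for 1, against 23.4% and 18.0% of all genes. Control HF was the highest for 5 and the lowest for 3, against 25.4% and 23.5%. Control standard was the highest for 8, against 23.6%, and the lowest for 7, near the share of all genes (34.6%). Members also spread more widely over the 4 samples than genes in general, with a median range of 0.26 against 0.16 for all genes. These ranges were taken on the background-corrected scale and were not matched for signal level. The ranks take no account of size. FR30 HF minus the next lowest sample was -0.02 for Grik1, -0.03 for Gria3 and -0.04 for Shank1, but -0.24 for Grin2a. The median deposited SD of these 21 members corresponded to 0.05 on a log2 scale of the authors' signals. Several members, such as Dlg4 and Shank1, lay near the detection limit, and their differences were smaller in the authors' own signals. With every probe kept whether detected or not, FR30 HF was the highest for 3 of 31 members.

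**Figure D1:**
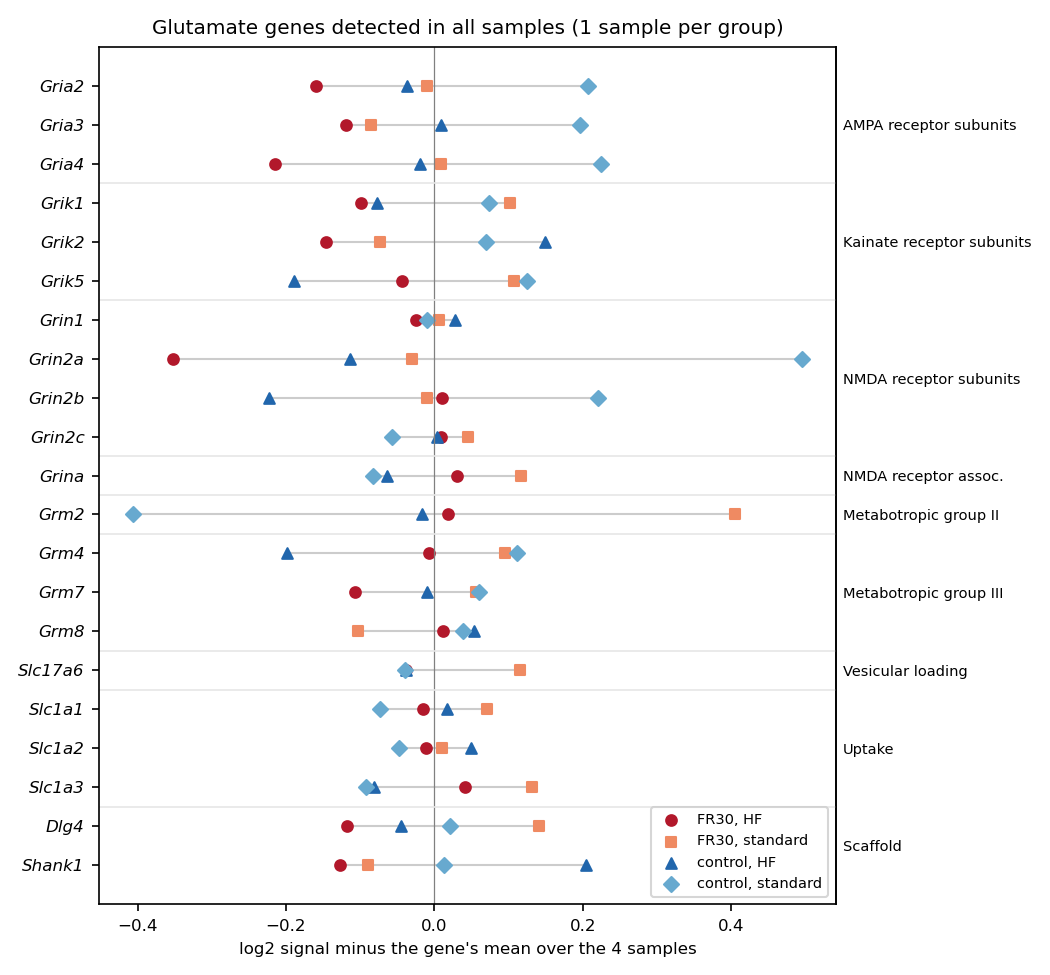
Each row is a member detected in all samples, and the points give its log2 signal in the 4 samples (1 sample per group) minus its mean over them; the grey line spans the range. FR30 HF (red circles) is at the low end of 10 of the 21 rows and at the high end of none, and Grin2a and Grm2 have the longest lines, 0.85 and 0.81.

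Diet was compared within each prenatal group, in pairs that share no sample. In FR30 offspring, 19 of 21 members were lower on HF than on standard diet, against 51.0% of all genes, and the median over members was -0.09 against -0.0024 over all genes. In control offspring 12 of 23 members were lower, against 45.8% of all genes, with a median of -0.07 against 0.01. For 8 of 21 members both HF samples lay below both standard samples, against 13.5% of all genes. These were Gria2, Gria4, Grik1, Grik5, Grin2a, Grm4, Grm7 and Dlg4. All were receptor subunits or receptors, as were most of the 21, except Dlg4, a scaffold. For Gria2 and Gria4 control HF lay just below FR30 standard, at 6716 ± 159 against 6815 ± 293 and 223 ± 10.9 against 225 ± 8.07. The count was 7 with the mean of all detected probes of a gene and 10 with a median shift in place of quantile normalization. For 0 of the 21 did both HF samples lie above both standard samples, against 16.5% of all genes.

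For the 8 genes with both HF samples below both standard samples, the sequence before the RefSeq gene start (build GRCr8) was looked up, and 5 were matched. The 250 bases before the start were searched on both strands for GGGCGG, the core of the GC box bound by Sp factors, and for TGACG, the core of the cyclic AMP response element. GGGCGG was present in 30.5% and TGACG in 18.2% of 33469 rat promoters of that length. Grm7 held GGGCGG 2 times and Grik5 1 time, while Gria4, Grik1 and Dlg4 did not hold it in this window, and none of the 5 held TGACG, so no match overlapped another motif. Grm7 and Grik5 are shown as the matched genes with a GC box, and Gria4 as the AMPA subunit among them, 5′ to 3′ on the strand of the gene with GGGCGG in capitals, read on either strand.
Grm7, chr4:145286476-145286725, plus strand: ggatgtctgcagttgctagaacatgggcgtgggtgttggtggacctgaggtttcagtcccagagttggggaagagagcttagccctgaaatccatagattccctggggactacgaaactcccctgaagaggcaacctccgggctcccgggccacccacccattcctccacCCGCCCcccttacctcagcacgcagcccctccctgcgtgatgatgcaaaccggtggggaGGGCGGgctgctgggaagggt
Grik5, chr1:89794910-89795159, minus strand: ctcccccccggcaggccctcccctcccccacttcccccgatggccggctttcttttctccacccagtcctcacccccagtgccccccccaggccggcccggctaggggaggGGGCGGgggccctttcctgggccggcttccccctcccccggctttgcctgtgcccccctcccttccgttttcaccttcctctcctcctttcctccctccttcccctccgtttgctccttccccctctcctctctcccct
Gria4, chr8:10319882-10320131, minus strand: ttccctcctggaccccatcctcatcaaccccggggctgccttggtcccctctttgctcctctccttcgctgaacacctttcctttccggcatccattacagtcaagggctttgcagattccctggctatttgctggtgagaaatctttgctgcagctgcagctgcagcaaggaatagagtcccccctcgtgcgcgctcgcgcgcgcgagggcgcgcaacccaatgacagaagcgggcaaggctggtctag
A match of these letters describes the sequence and is not a measured binding site.

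Prenatal group was compared within each diet, again in pairs that share no sample. On standard diet 12 of 22 members were lower in FR30 than in control offspring, against 43.4% of all genes, with a median of -0.01 against 0.02. On HF diet 13 of 21 were lower, against 48.2% of all genes, with a median of -0.04 against 0.0043. Both FR30 samples lay above both control samples for 4 of 21 members (Grin2c, Grina, Grm2 and Slc1a3), against 25.2% of all genes, and below for 4 (Gria3, Grik2, Grm8 and Shank1), against 19.0%. Both shares were at or near those of all genes.

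**Figure D2:**
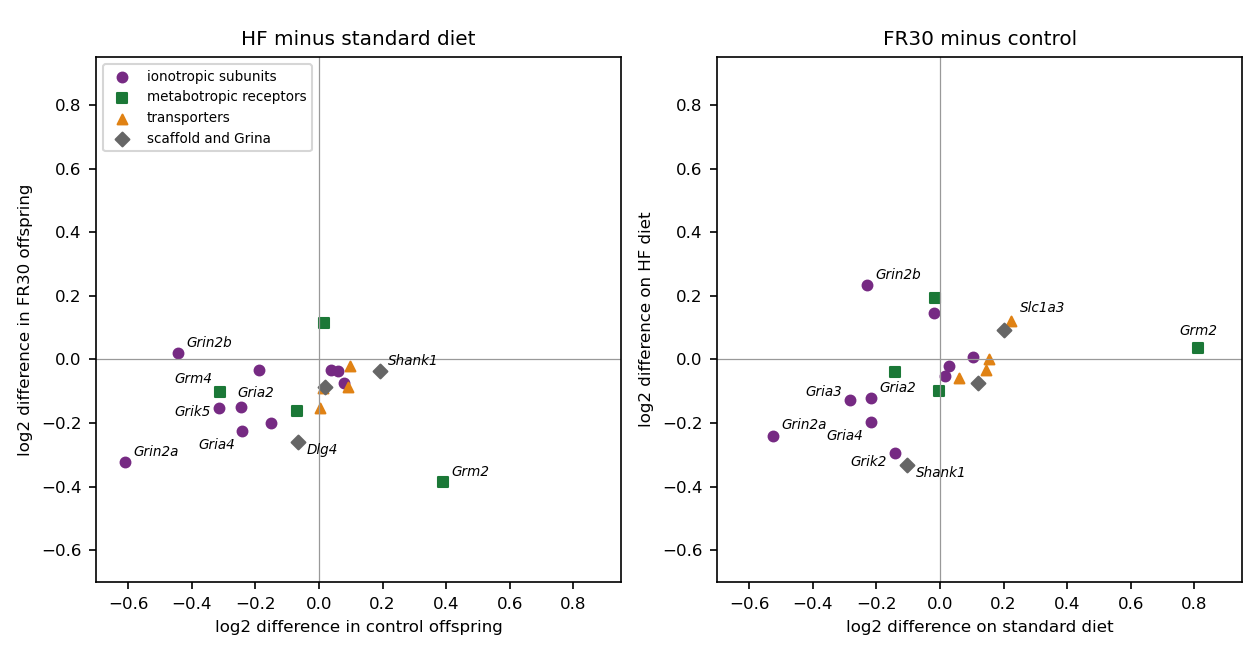
Left, the log2 difference of HF minus standard diet in FR30 offspring (vertical) against that in control offspring (horizontal); right, the log2 difference of FR30 minus control on HF diet (vertical) against that on standard diet (horizontal), 1 point per member detected in all samples, coloured by class. On the left Grin2a (-0.61 and -0.32) lies furthest toward the lower left, and Grm2 (0.39 and -0.39) lies at the lower right.

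Of all members 2 passed 1.5-fold in any of the 4 comparisons. Grin2a did so for HF diet in control offspring, where 0.587% of all genes passed in either direction, and Grm2 for FR30 on standard diet, where 0.776% passed. No member passed for HF diet in FR30 offspring (0.324% of all genes) or for FR30 on HF diet (0.802%). In the authors' own normalized signals neither reached 1.5-fold, at -0.39 for Grin2a and 0.54 for Grm2.

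The 3 AMPA receptor subunits with a probe were lower in each of the 4 comparisons, by less than 1.5-fold, and none passed an adjusted p of 0.05 in the additive limma fit. AMPA receptors carry the fast excitatory current, and Gria2 makes them impermeable to calcium. Gria2 had signals of 6198 ± 206 in FR30 HF, 6815 ± 293 in FR30 standard, 6716 ± 159 in control HF and 7954 ± 66.8 in control standard. The unexposed sample was thus the highest, the doubly exposed one the lowest, and the other 2 lay between. HF minus standard diet was -0.15 in FR30 and -0.24 in control offspring, and FR30 minus control was -0.12 on HF and -0.22 on standard diet.

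Gria3 was likewise lowest in FR30 HF and highest in control standard, at 394 ± 6.97 in FR30 HF, 400.4 ± 24.0 in FR30 standard, 420.0 ± 7.09 in control HF and 459 ± 3.42 in control standard. Its difference was -0.28 for FR30 on standard diet and -0.13 on HF diet, with -0.03 for HF diet in FR30 and -0.19 in control offspring. Gria4 had 211 ± 7.55 in FR30 HF, 225 ± 8.07 in FR30 standard, 223 ± 10.9 in control HF and 239.6 ± 17.1 in control standard. Its 4 differences were of similar size, between -0.24 and -0.20, and in each the ranges of 2 deposited SD around the 2 signals overlapped. In the authors' own signals the Gria4 differences were smaller, between -0.10 and -0.08. Gria2, Gria3 and Gria4 were, with Grin2a and Grm7, the 5 of 21 members lower in all 4 comparisons, which share samples; of all genes 10.8% were lower in all 4.

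**Figure D3:**
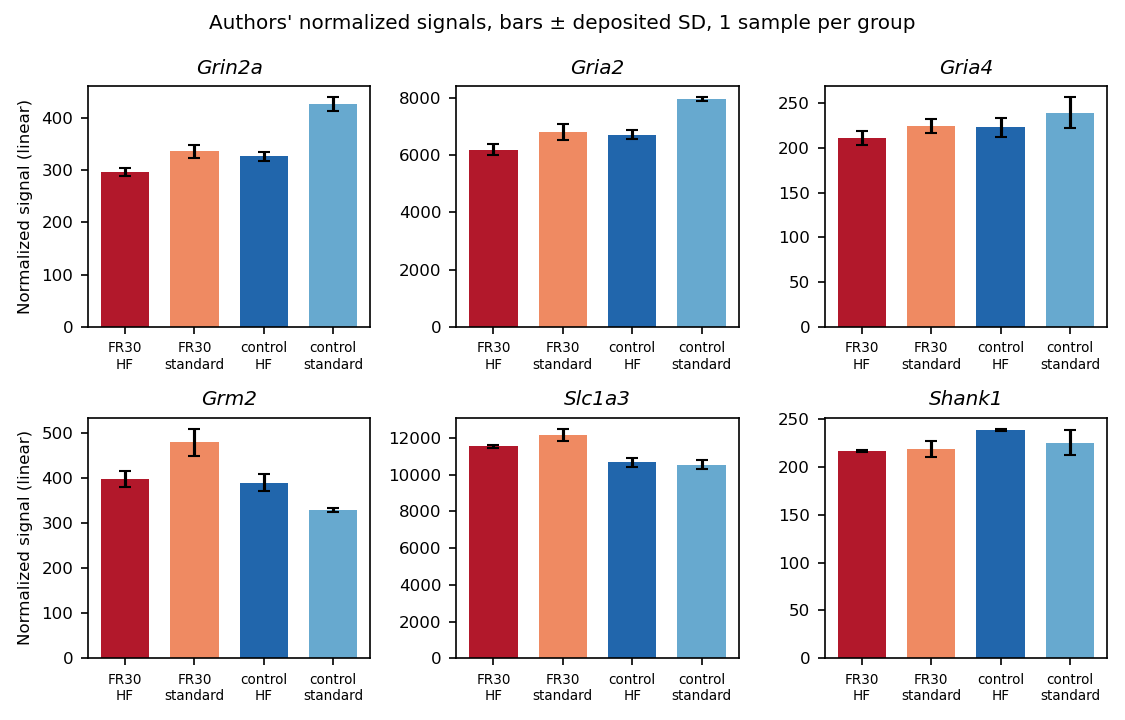
Bars give the authors' normalized signal (linear scale, from 0) of 6 members in FR30 HF, FR30 standard, control HF and control standard, with error bars of the deposited SD and 1 sample per group. Grin2a, Gria2 and Gria4 are highest in control standard and lowest in FR30 HF, Grm2 is highest in FR30 standard, and Slc1a3 is higher in both FR30 samples.

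The kainate subunits, which form channels that also modulate release from presynaptic terminals, were mixed. Grik5, a subunit that raises the affinity for the agonist, had 991 ± 20.5 in FR30 HF, 1088 ± 58.2 in FR30 standard, 918 ± 7.23 in control HF and 1097 ± 71.1 in control standard. Both standard samples were the higher ones, with HF differences of -0.15 in FR30 and -0.31 in control offspring. Both values depend on this probe: averaged with a dimmer second probe, the FR30 value was 0.08 and the control value -0.16. Grik1 showed the same split by diet, at 935 ± 30.4 in FR30 HF, 1044 ± 19.9 in FR30 standard, 949 ± 26.2 in control HF and 1027 ± 29.7 in control standard.

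Grik2 differed by prenatal group instead. It had 611 ± 25.1 in FR30 HF, 632 ± 13.1 in FR30 standard, 721 ± 10.4 in control HF and 688 ± 51.6 in control standard, so both FR30 samples were below both control samples. The FR30 difference was -0.29 on HF diet and -0.14 on standard diet. Grik3 and Grik4 were not detected.

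NMDA receptors need Grin1 in every channel and take their kinetics from the Grin2 subunits. Grin1 was the steadiest member, with 4621 ± 110 in FR30 HF, 4750 ± 161 in FR30 standard, 4824 ± 235 in control HF and 4695 ± 289 in control standard, a range of 0.05. Grin2a, the subunit typical of mature synapses, had the widest range, with 296 ± 8.17 in FR30 HF, 335 ± 12.8 in FR30 standard, 326 ± 8.26 in control HF and 426 ± 12.8 in control standard. Control standard stood apart from the other 3 samples.

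HF minus standard diet for Grin2a was -0.32 in FR30 and -0.61 in control offspring, a level of 0.656 times that on standard diet. FR30 minus control was -0.24 on HF and -0.53 on standard diet. In the authors' own signals these 4 differences of Grin2a were -0.18, -0.39, -0.14 and -0.34. Grin2b, the subunit that dominates in development, had 209.9 ± 1.63 in FR30 HF, 209.8 ± 7.95 in FR30 standard, 199 ± 2.95 in control HF and 223 ± 1.32 in control standard. It differed between diets in control offspring (-0.44) but by 0.02 in FR30 offspring, where a median shift in place of quantile normalization gave -0.0085. FR30 minus control was 0.23 on HF and -0.23 on standard diet. The probe was dim, and in the authors' own signals the diet difference in control offspring was -0.16 and the FR30 differences were 0.07 on HF and -0.09 on standard diet. Grin2c ranged over 0.10 across the samples.

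Grin2d was detected in neither FR30 sample, with signals of 182 ± 12.6 on HF and 182 ± 3.63 on standard diet, and in both control samples, with 192 ± 5.39 on HF and 195 ± 9.49 on standard diet. On the background-corrected scale it was at least 1.06-fold lower in FR30 offspring on HF diet and at least 1.08-fold lower on standard diet. For such a bound, the dim sample is taken at its lowest detected value on that scale or at the probe's own, whichever was higher. The deposited signals themselves differed by less than these folds. Grina was higher in both FR30 samples, at 1634 ± 81.2 on HF and 1724 ± 107 on standard diet. Control offspring had 1540 ± 27.8 and 1508 ± 72.7 on the same diets. In both pairs the ranges of 2 deposited SD around the signals overlapped. Both FR30 samples lay above both control samples in 25.2% of all genes.

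In both diet comparisons thalamus markers and ionotropic subunits were mostly lower on HF diet. For HF diet in control offspring the median was -0.43 over 12 detected thalamus markers and -0.19 over 11 ionotropic subunits, of which 8 were lower, against 45.8% of all genes. For HF diet in FR30 offspring these medians were -0.17 over 11 markers and -0.11 over 10 subunits, of which 9 were lower, against 51.0% of all genes. For FR30 on standard diet the thalamus markers had a median of -0.03, with 6 of 11 lower and values between -0.52 and 0.22. The subunits had a median of -0.18, with 7 of 10 lower, against 43.4% of all genes. On HF diet the markers had 0.17 and the subunits -0.09, again with 7 of 10 lower, against 48.2%. Hypothalamus markers had a median of -0.12 for FR30 on standard diet, with 7 of 11 lower. In the other comparisons their medians lay between -0.06 and 0.06. Oligodendrocyte markers had a median of 0.15 for FR30 on HF diet, with 7 of 9 higher, and medians of 0.0074 to 0.05 in the other comparisons. Ttr, abundant in choroid plexus, had signals of 1251 in FR30 HF, 209 in FR30 standard, 183 in control HF, where it was not detected, and 523 in control standard. Prl, the pituitary hormone prolactin, had 240.5 in FR30 HF, 313 in FR30 standard, 159 in control HF, where it was not detected, and 759 in control standard. Tshb and Pomc, the 2 anterior pituitary markers detected in all samples, were instead highest in FR30 HF and lowest in control standard. Their summed signal was 8826 in FR30 HF, 6747 in FR30 standard, 6355 in control HF and 5484 in control standard. Pomc is also on the hypothalamus list. The part of tissue composition in the members' differences was not tested. Medians of 10 neuronal markers were between -0.06 and 0.05 in the 4 comparisons.

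**Figure D4:**
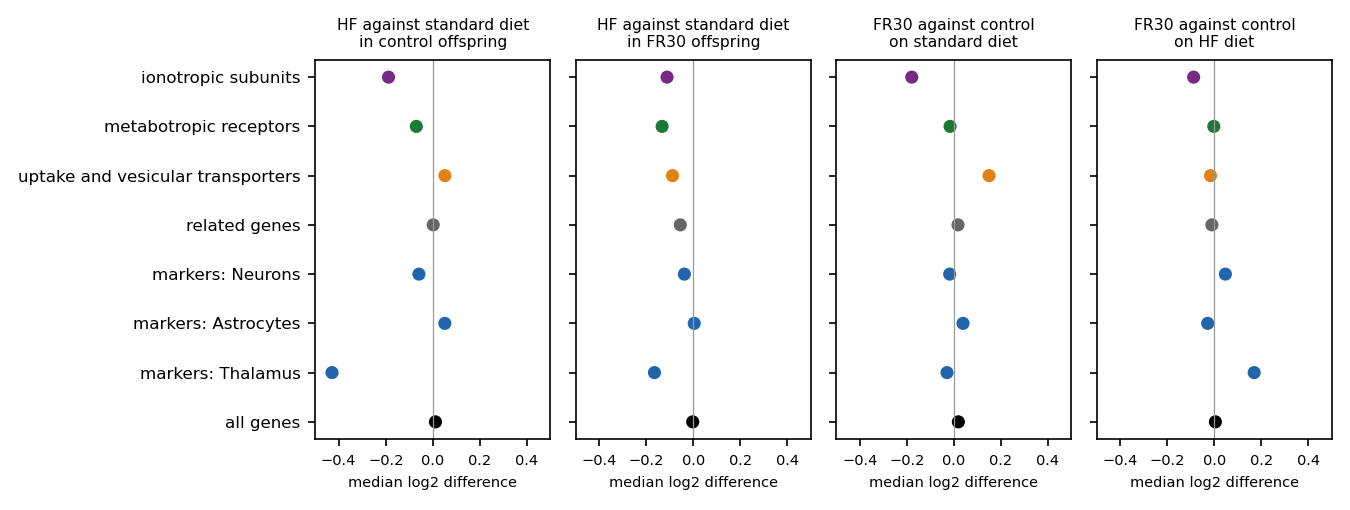
Each panel is 1 comparison and each point the median log2 difference of a list over its genes detected in both samples. The ionotropic subunits lie below 0 in all 4 panels (between -0.19 and -0.09), the thalamus markers lie lowest for HF diet in control offspring (-0.43) and above 0 for FR30 on HF diet (0.17), and all genes lie near 0.

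Among the metabotropic receptors, Grm2 differed most. It is a presynaptic receptor of group II, coupled to inhibition of adenylyl cyclase, that limits glutamate release. Its signals were 397 ± 17.5 in FR30 HF, 479 ± 29.8 in FR30 standard, 390.1 ± 19.3 in control HF and 329.6 ± 5.05 in control standard. FR30 standard was the highest, control standard the lowest, and both HF samples lay close together between them. FR30 minus control was 0.04 on HF diet and 0.81 on standard diet, a level of 1.75 times that of control offspring. HF minus standard diet was -0.39 in FR30 and 0.39 in control offspring (-0.27 and 0.24 in the authors' own signals), opposite in sign, and the FR30 value minus the control value was -0.78. In 1.24% of all genes the diet differences were at least 1.5-fold apart.

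The group III receptors Grm4, Grm7 and Grm8 are likewise found on terminals, where they reduce transmitter release. Grm4 had 208 ± 1.53 in FR30 HF, 213 ± 10.6 in FR30 standard, 199 ± 12.2 in control HF and 215 ± 13.1 in control standard. Its HF difference was -0.10 in FR30 and -0.31 in control offspring, and -0.04 and -0.11 in the authors' own signals. In both pairs the ranges of 2 deposited SD overlapped. Grm7 had 572 ± 16 in FR30 HF, 624 ± 17 in FR30 standard, 605 ± 5.57 in control HF and 625 ± 10.3 in control standard, with FR30 HF the lowest. Grm8 had 217 ± 13.4 in FR30 HF, 212 ± 9.39 in FR30 standard, 220.0 ± 4.65 in control HF and 219 ± 10.7 in control standard, a range of 0.16. Grm5, of group I, which signals through phospholipase C, had 182 ± 11.8 in FR30 HF, where it was not detected, 201 ± 5.67 in FR30 standard, 199.99 ± 1.45 in control HF and 206 ± 12.5 in control standard. On the background-corrected scale FR30 HF was at least 1.24-fold lower than FR30 standard and at least 1.21-fold lower than control HF. In the authors' own signals, which give no such bound, these differences were -0.14 and -0.13 on the log2 scale.

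Slc17a6, the vesicular transporter of most hypothalamic and thalamic glutamate neurons, had 12056 ± 140 in FR30 HF, 13312 ± 695 in FR30 standard, 11989 ± 163 in control HF and 12149 ± 213 in control standard. FR30 standard was the highest and the other 3 were close together. FR30 minus control was 0.16 on standard diet, or 0.09 with a median shift in place of quantile normalization, and HF minus standard diet was -0.15 in FR30 offspring. In control offspring the HF difference was 0.0025, and it turned to -0.02 in the authors' signals and -0.09 with a median shift.

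Slc1a3, an astrocyte carrier that clears glutamate, was higher in both FR30 samples, with 11553 ± 76.2 on HF and 12167 ± 327 on standard diet, against 10671 ± 235 and 10552 ± 226 in control offspring on the same diets. Its FR30 difference was 0.12 on HF and 0.22 on standard diet, and in both pairs the ranges of 2 deposited SD around the signals did not overlap. The same gap upward was found in 5.9% of all genes on HF diet and 5.37% on standard diet. Slc1a2, the other astrocyte carrier, had 624 ± 20.0 in FR30 HF, 628 ± 19.8 in FR30 standard, 645 ± 28.4 in control HF and 611 ± 19.5 in control standard, a range of 0.10. The neuronal carrier Slc1a1 had 4987 ± 47.6 in FR30 HF, 5266 ± 437 in FR30 standard, 5059 ± 214 in control HF and 4757 ± 183 in control standard. Its ranges of 2 deposited SD overlapped in all 4 comparisons.

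On standard diet all 4 detected transporters (Slc17a6, Slc1a1, Slc1a2 and Slc1a3) were higher in FR30 than in control offspring, against 56.2% of all genes, with a median of 0.15 and none past 1.5-fold. There the 8 astrocyte markers had a median of 0.04. In FR30 offspring all 4 were lower on HF than on standard diet (median -0.09), against 51.0% of all genes, where the astrocyte markers had 0.0039. These comparisons share the FR30 standard sample, the highest for Slc17a6, Slc1a1 and Slc1a3, so they are not separate results. The part of astrocyte content in these values was not tested. Slc1a6, a carrier best known from Purkinje cells, was detected in control HF alone, with signals of 186 ± 6.79 in FR30 HF, 189 ± 11 in FR30 standard, 189 ± 6.21 in control HF and 178 ± 4.90 in control standard. On the background-corrected scale control HF was at least 1.03-fold above control standard.

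Of the scaffolds, Shank1, which links receptor complexes to the actin cytoskeleton of the spine, was lower in both FR30 samples. It had 217 ± 1.36 in FR30 HF, 219 ± 8.43 in FR30 standard, 238 ± 1.30 in control HF and 225 ± 13 in control standard. Relative to control offspring the difference was -0.33 on HF diet and -0.10 on standard diet, and -0.14 and -0.04 in the authors' own signals. Dlg4, the PSD-95 scaffold that anchors NMDA receptors, had 208 ± 4.04 in FR30 HF, 223 ± 9.08 in FR30 standard, 212 ± 8.66 in control HF and 216 ± 6.85 in control standard. HF minus standard diet was -0.26 in FR30 and -0.07 in control offspring, and -0.10 and -0.03 in the authors' own signals.

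Measured against the deposited SD, 5 of 23 members were lower on HF diet in control offspring with ranges of 2 SD that did not overlap, against 6.4% of all genes: Gria2, Gria3, Grik5, Grin2a and Grin2b. All 5 are ionotropic subunits, a class that held 11 of the 23. Grm2 alone was that far apart upward, against 4.64% of all genes. In FR30 offspring 1 of 21 was lower by this measure on HF diet, Grik1, against 3.63%, and 0 were higher, against 2.65%. For FR30 on standard diet 3 of 22 were lower (Gria2, Gria3 and Grin2a), against 6.27%, and 2 were higher (Grm2 and Slc1a3), against 5.37%. On HF diet 2 of 21 were lower (Grik2 and Shank1), against 6.51%, and 3 were higher (Grik5, Grin2b and Slc1a3), against 5.9%.

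Prenatal group and diet were also fitted together over the 4 samples with limma, with 1 residual degree of freedom, which is the interaction of the 2 factors and not the spread between animals. None of the 21 members passed an adjusted p of 0.05 (Benjamini-Hochberg over 10100 genes) for FR30, where 0.0099% of all genes passed, or for HF diet, where 0 genes passed. At an unadjusted p under 0.05 there were 7 of 21 members for FR30, against 12.7% of all genes, and 6 of 21 for HF diet, against 7.12%. In this limma fit Grin2a had a log2 difference of -0.38 ± 0.09 (SE) for FR30 with an adjusted p of 0.235, and -0.47 ± 0.09 for HF diet with an adjusted p of 0.596. It was lower in 2 of 2 pairs for each factor. Gria4 had -0.21 ± 0.06 for FR30, with an adjusted p of 0.291 in the limma fit, and -0.23 ± 0.06 for HF diet, with an adjusted p of 0.596.

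Of 53 further genes of glutamate transmission, 38 were detected in both samples of the control diet pair and none passed 1.5-fold in any comparison. They were balanced for HF diet in control offspring, with 20 higher and 18 lower, against 45.8% of all genes lower, and a median of 0.0019. For HF diet in FR30 rats 26 of 37 were lower, against 51.0% of all genes, with a median of -0.06 against -0.0024. Cnih2, an auxiliary subunit of AMPA receptors, was the lowest for HF diet in control offspring (-0.44), with 1299 in FR30 HF, 1376 in FR30 standard, 1055 in control HF and 1398 in control standard. Cacng3, also an AMPA auxiliary subunit, followed it at -0.39, while Srr (0.24), which makes the NMDA co-agonist D-serine, and Nptx2 (0.22), a secreted protein that clusters AMPA receptors, were the highest. Cacng8, another AMPA auxiliary subunit, had signals near the detection limit, 195 in FR30 HF, 223 in FR30 standard, 212 in control HF and 206 in control standard. It was the lowest for HF diet in FR30 offspring (-0.56) and for FR30 on HF diet (-0.38), and second highest for FR30 on standard diet (0.30). In the authors' own signals these were -0.19, -0.12 and 0.11. Homer2, a scaffold of group I metabotropic receptors, came next after Cacng8 in both of the comparisons it led downward (-0.31 and -0.32).

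Dlgap4, a partner of Dlg4, had 2045 in FR30 HF, 1643 in FR30 standard, 1867 in control HF and 2321 in control standard. It was the lowest of the further genes for FR30 on standard diet (-0.58), just short of 1.5-fold and ahead of Dlgap1 (-0.28), of the same family, and the highest for HF diet in FR30 offspring (0.38), ahead of Slc1a4 (0.31), a neutral amino acid carrier. Cnih2 (0.32) and Dao (0.29), which breaks down D-serine, were the highest for FR30 on HF diet. Grip2 (0.38), an AMPA receptor trafficking protein, was the highest for FR30 on standard diet. Slc1a4 and Dao had signals near the detection limit, and in the authors' own signals their differences given here were 0.10 and 0.08. Camk2b, a kinase subunit activated by calcium entry and picked after its values were seen, had 2930 in FR30 HF, 3495 in FR30 standard, 3542 in control HF and 4134 in control standard, and its 4 differences lay between -0.26 and -0.22. The 9 detected genes of the glutamate and glutamine cycle had medians between -0.0067 and 0.09.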

How the data were processed

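Hypothalamic RNA was purified with Trizol and columns and given a biotin label, per the labels' protocols. GenomeStudio, with no version, made the deposited tables, per the submitters' processing notes. The non-normalized table holds the authors' linear bead intensity per probe and a deposited detection p-value. The normalized table adds, per the file headers, an SD; neither its normalization nor its genome build was given in the sources used here. The series' value table was identical to it (largest difference 0). The number of samples limits the precision.

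The neqc method of limma 3.58.1 (R 4.3.3, offset 16) turned non-normalized intensities into log2 values. The brightest probe stood for a gene. Symbols were matched to RefSeq: 10291 probes held a current and 4966 an older symbol, 1642 a gene number, 5495 were unmatched, 117 held none and 12 a date. Comparisons between samples were described by size among genes detected at p under 0.01, with no test. The additive limma fit (Benjamini-Hochberg, with 3.83 prior degrees of freedom) was run on simulated data. The simulated noise came from the fit's own prior and held no interaction, so that run does not check the p-values for these samples. Alternatives changed the normalization, background correction, detection filter, probe choice and variance trend. The members and lists were chosen with earlier results of these data known. By rule, signals were given for members past 1.5-fold, for the 3 highest and 3 lowest of a comparison, and for the largest difference of each class without one; other members were added after their values were seen. Further genes were named if past 1.5-fold or among the 2 highest or 2 lowest of a comparison. Promoters came from RefSeq (GRCr8), and the plots from matplotlib 3.10.9 under Python 3.11.15.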

Additional observations from a re-analysis of the deposited data

Results flagged for a closer look

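The log2 diet difference of Grm2 in FR30 offspring minus that in control offspring was -0.78. It drew attention because the HF sample lay below the standard sample in FR30 offspring (-0.39) and above it in control offspring (0.39). With 1 sample per group this difference between the diet effects was not tested.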

How the results depend on the processing

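With the authors' normalized signals and with quantile normalization without background correction, 0 members passed 1.5-fold for HF diet in control offspring, for FR30 on standard diet and in the difference of diet differences, where 1 had passed in each. Grin2a for HF diet in control offspring then stood at -0.39 and -0.41, and Grm2 for FR30 on standard diet at 0.54 and 0.56; the cause was not tested. With no detection filter, which adds undetected genes, the median over members for HF diet in control offspring was -0.0049, FR30 HF was the highest sample for 3 members in place of 0, and both HF samples lay above both standard samples for 2 members in place of 0. FR30 HF was the highest sample for 1 member with a detection p under 0.05 and for 1 with the mean of all detected probes. The members lower on HF diet in FR30 offspring numbered 18 of 21 to 20 of 21 in the settings that kept the detection filter at p under 0.01. The additive fit called 0 members for either factor in all its settings, including a variance trend. Of 360 differences of named members under alternatives, 5 changed sign, the largest of them reported as -0.15 (Grik5 for HF diet in FR30 offspring). The counts of direction and order were added after seeing the data. No paired analysis was possible because each group held 1 sample. Probes near the detection limit, such as Gria4, Grin2b, Grm4, Grm5, Shank1 and Dlg4, lie close to background, which limits their differences.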
